A study of Mus musculus with 4 samples.

Results

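Splenic B cells that had been cultured with LPS carry RNA of genes that mark other blood cells, and 41 such marker genes were followed here through 2 control and 2 cKO samples. The 41 genes are a hand-made list of 21 myeloid, 12 T cell and 8 NK cell genes, taken by symbol from the 30041 genes that each deposited file lists, and all 41 were found. The samples came from C57BL/6 mice. The control cells were Nfkbiz fl/Δ, and the cKO cells were Nfkbiz fl/Δ Mb1cre/+, so that both groups share a deleted allele and differ in the Cre recombinase that the Cd79a (Mb1) locus drives in cells of the B lineage. The other cell types of a cKO mouse are therefore taken to keep the floxed allele. All cells were stimulated for 72 h with LPS, at 20 mg/ml by the sample labels and at 20 μg/ml by the methods. The ages of the mice are not given in the sources used here. Nothing in those sources says whether the samples of a group came from separate animals. The p-values therefore measure the spread between these samples, which may be technical in part.

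B cells had been purified from spleen by removing cells that carry CD43, CD4 or Ter-119. CD43 is found on most T, NK and myeloid cells and on activated and B-1 B cells, and Ter-119 marks red cells. Such negative selection leaves a few cells of other types, and the markers of those cells bear on how much of their RNA is in a B cell culture. Not all such markers are strict: myeloid cells use Fcer1g and Tyrobp as adaptors that carry the signalling motif of their receptors, as do NK cells, and some B cells transcribe Lck, Zap70 or Itgam at low levels. By the methods the great majority of the purified cells were B220+ B cells. In bulk RNA, fewer cells of a type and less RNA per cell cannot be told apart. The paper reports that cKO B cells divided less than control B cells after LPS. Where a score is relative to its library, more RNA of other cells and less RNA of B cells cannot be told apart either.

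The deposited value of a gene is a score without a stated unit. Its low values fall near multiples of a step that scales with exon length, as read numbers divided by exon length and library size would, so scores were compared between genes as levels per length. From that step each library was estimated to hold 17500000 to 19900000 reads. The share of low scores within 0.2 steps of a whole number was 75.4 to 81.9%. The step was chosen as the best fit to these same scores, so this share is not a separate test of it. The read numbers given below are estimates. Nfkbiz itself, the targeted gene, had scores of 0.0241 and 0.0226 in the control and 0.0127 and 0.0116 in the cKO samples. The pseudogene H2-Ea-ps stood at 1.15 in the second control sample and at most 0.00008 in the other 3. The control samples thus differed widely from each other at this gene, and the source of that difference was not tested. The haemoglobin gene Hbb-b1 had 0.00657 in the first control sample and at most 0.00113 in the others. The 12 B cell markers summed to 5.59 and 6.04 in the control and 5.24 and 5.46 in the cKO samples, and all 12 were above the filter for testing given below.

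The members covered a wide range of levels. Itgam (0.135 to 0.158) and Lck (0.0318 to 0.0690) stood highest, and no other T cell member passed 0.00278 in any sample. The highest NK cell score was 0.00302. Of the 41 members, 37 had a score above 0 in at least 1 sample, 22 stayed below 0.001 in all of them, and 4 (S100a9, Elane, Ctsg and Gzma) were at 0 throughout. Differences were tested with limma on log2(score + 0.0001) in the 9727 genes that reached 0.005 in any sample, with p-values adjusted over all of these by Benjamini and Hochberg. Only 8 members met this filter, 7 of them myeloid and 1 of the T cell list. Of these 8, Fcer1g was called higher in cKO at an adjusted p under 0.05 and none was called lower, where 0.812% of the 9727 genes were called higher and 1.25% lower. At an unadjusted p under 0.05 stood 6 of the 8, and 22.3% of the 9727 genes. A broader fit with the 13927 genes whose mean score is at least 0.0005 took in 17 members and called 0 of them, with 12 at an unadjusted p under 0.05. In that fit 0.431% of the genes were called higher and 0.783% lower, and 20.0% had an unadjusted p under 0.05.

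**Figure D1:**
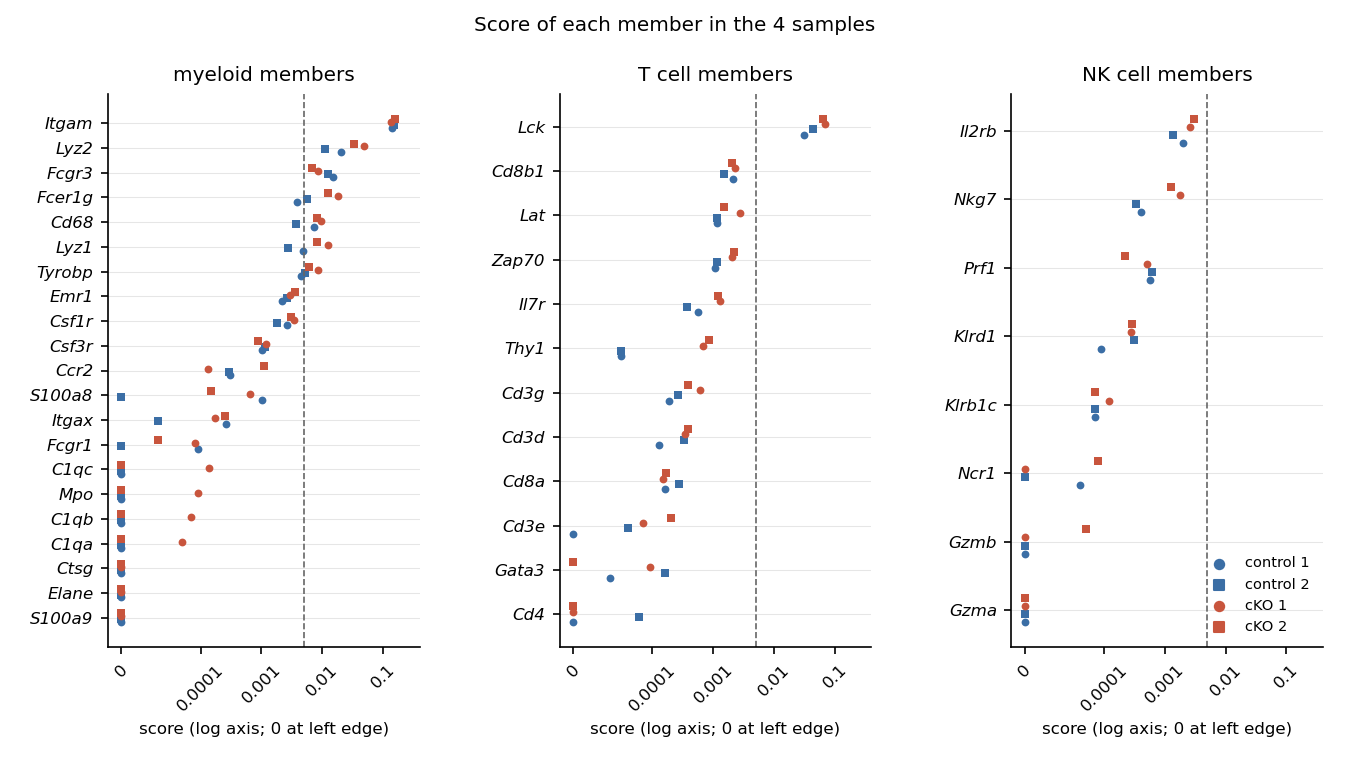
Score of each of the 41 members (rows, by mean score) in the 2 control (blue) and 2 cKO (red) samples, on a log axis with 0 drawn at the left edge. The dashed line is the filter of 0.005. Itgam and Lck lie far to the right of the other members of their lists, and S100a9, Elane, Ctsg and Gzma lie at 0 in all 4 samples.

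Without regard to size, both cKO samples lay above both control samples in 17 of the 37 members with a score above 0 (45.9%) and below them in 2, Fcgr3 and Prf1. Over all 21582 genes with a score above 0, the groups were separated in this way with cKO higher in 23.1% and with cKO lower in 21.8%. By lineage, the separation with cKO higher was found in 7 of 18 myeloid, 8 of 12 T cell and 2 of 7 NK cell members. The median log2 fold change was 0.44 for the myeloid, 0.80 for the T cell and 0.29 for the NK cell members, beside 0.00 for all genes above 0. These counts describe the list and carry no test. The medians move strongly with the constant added before taking logs, because most members are near 0: with 0.001 in place of 0.0001 they were 0.094, 0.23 and 0.035.

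Among the receptor chains and adaptors of the myeloid list, Fcer1g, the common γ chain of Fc receptors, rose. Its scores were 0.00393 and 0.00571 in the control and 0.0185 and 0.0125 in the cKO samples. The groups did not overlap, and the filter was met in both of them. The ratio of the means was 3.22, and the log2 fold change of 1.66 (SE 0.25, n = 2 and 2) had a limma adjusted p of 0.0420. The call was lost in the fit on mean scores (limma adjusted p = 0.0548), in a fit without a filter (0.228), without the mean-variance trend (0.0760), and when either cKO sample was left out (0.203 and 0.0793). It was kept when either control sample was left out (0.028 and 0.00798). Fcer1g lies on chromosome 1, minus strand, at 173159703 to 173164496 of NCBIM37, the assembly also called mm9. None of its read-length stretches is shared with a protein-coding transcript of another gene, and other sequences were not compared.

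Tyrobp (DAP12), the second adaptor of this kind, had 0.00450 and 0.00531 in the control and 0.00870 and 0.00598 in the cKO samples. The groups did not overlap, and the log2 fold change of 0.55 (SE 0.22, n = 2 and 2) did not pass the test (limma adjusted p = 0.216). Fcgr3, the low-affinity IgG receptor that signals through Fcer1g, had 0.0148 and 0.0125 in the control and 0.00867 and 0.00672 in the cKO samples, and Fcgr1, the high-affinity receptor, stood at 0.00009 or less in every sample. Of the partner genes outside the list, Sirpa, an inhibitory receptor of myeloid cells, rose (0.00635 and 0.00475 in the control, 0.0179 and 0.0151 in the cKO samples, log2 fold change 1.56, limma adjusted p = 0.0294).

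Fcgr3 had a log2 fold change of -0.82 (SE 0.16, n = 2 and 2), and its groups did not overlap, but it did not pass the test (limma adjusted p = 0.0745), although it would without the second control sample (0.0312). Its coding sequence holds a long stretch that is identical in Fcgr2b, the inhibitory IgG receptor of B cells. The stretch is shown because a read from it cannot be assigned to either gene. It has 129 bases, and it lies on chr1:172984298-172987923 in Fcgr3 and on chr1:172896805-172898212 in Fcgr2b (NCBIM37, minus strand, the introns between its exons included).
Fcgr3 and Fcgr2b: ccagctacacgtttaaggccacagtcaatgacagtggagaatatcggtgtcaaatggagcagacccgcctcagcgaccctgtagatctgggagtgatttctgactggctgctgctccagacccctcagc
In all, 202 of the 1633 windows of 38 bases, the read length, in Fcgr3 transcripts (12.4%) occur in Fcgr2b. Fcgr2b had 0.0865 and 0.0776 in the control and 0.0552 and 0.0539 in the cKO samples, and it fell by 0.59 on the log2 scale (limma adjusted p = 0.0428). This call was lost in the broader fit (limma adjusted p = 0.0503). The Fcgr2b score multiplied by that share came to 72.2 and 77.0% of the Fcgr3 score in the control and 78.7 and 99.2% in the cKO samples. With up to 2 mismatches the share was 23.5% and the product 0.0126 to 0.0203, above the Fcgr3 score in every sample. How the reads of shared stretches were assigned is not given in the sources used here. The part of such reads in the Fcgr3 value was not tested.

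Itgam (CD11b), the integrin chain that defines many myeloid cells, had the highest score of all members, 0.141 and 0.150 in the control and 0.135 and 0.158 in the cKO samples. The groups overlapped, with a log2 fold change of 0.00 (SE 0.10, limma adjusted p = 0.988). It made up 53.8 to 76.1% of the summed myeloid score. The last exon of Itgam holds a stretch of 63 coding bases, chr7:135270491-135270553 on the plus strand of NCBIM37, that is identical in the ribosomal protein gene Rpl35 on chromosome 2. It is shown because Rpl35 is expressed far above any member, at 1.05 to 1.16.
Itgam and Rpl35: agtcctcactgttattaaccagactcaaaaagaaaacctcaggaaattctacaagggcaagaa
Exact windows of the read length shared with Rpl35 are only 26 of 6523 (0.399%), or 1.98% with up to 2 mismatches. The Rpl35 score multiplied by the exact share came to 2.93 to 3.11% of the Itgam score. Multiplied by the share with up to 2 mismatches it was 0.0208 to 0.0229, still far below the Itgam score. The Itgam score divided by the Rpl35 score was 0.130 and 0.132 in the control and 0.128 and 0.136 in the cKO samples. Itgb2 (CD18), with which CD11b pairs, had 0.0374 and 0.0375 in the control and 0.0421 and 0.0430 in the cKO samples, below the level of Itgam. Itgax (CD11c), the related chain of dendritic cells, stayed at 0.00026 or less. Where along Itgam its reads lie cannot be seen from a score per gene.

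The lysozymes, secreted enzymes that monocytes, macrophages and neutrophils make in large amounts, were higher in both cKO samples. Lyz2 had 0.0205 and 0.0112 in the control and 0.0485 and 0.0329 in the cKO samples, a log2 fold change of 1.39 (SE 0.31, n = 2 and 2). Lyz1 had 0.00492 and 0.00270 in the control and 0.0126 and 0.00826 in the cKO samples, a log2 fold change of 1.46 (SE 0.33). In neither gene did the groups overlap, and neither passed the test (limma adjusted p = 0.0961 for Lyz2 and 0.0986 for Lyz1). Lyz1 met the filter through its cKO samples only. The control samples differed from each other by more than 1.5 times in both genes, and without the first of them both would be called (limma adjusted p = 0.00883 for Lyz2 and 0.0162 for Lyz1), and Lyz2 would be without the second as well (0.0442).

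Lyz1 and Lyz2 lie side by side on the minus strand of chromosome 10, and share much of their sequence. Their coding sequences of 447 bases differ at 22 positions (95.1% identity), with a longest identical run of 118 bases. Coding bases 260 to 409 of both are set side by side, with the 5 bases that differ in capitals. The stretches span chr10:116725677-116728126 in Lyz1 and chr10:116715215-116717738 in Lyz2 (NCBIM37, introns included).
Lyz1: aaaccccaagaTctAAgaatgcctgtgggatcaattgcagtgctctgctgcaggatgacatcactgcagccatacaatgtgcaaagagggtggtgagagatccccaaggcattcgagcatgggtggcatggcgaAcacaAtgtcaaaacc
Lyz2: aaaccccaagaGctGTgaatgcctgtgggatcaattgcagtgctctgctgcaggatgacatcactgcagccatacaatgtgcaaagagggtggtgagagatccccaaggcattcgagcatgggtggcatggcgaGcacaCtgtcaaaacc
Of the 1227 read-length windows of Lyz1, 323 (26.3%) are found in Lyz2 without a mismatch. The Lyz2 score multiplied by this share came to 110% of the Lyz1 score in both control samples and to 101 and 105% in the cKO samples. The product assumes reads spread evenly along Lyz2, and it was about equal to the measured Lyz1 score in every sample. The reverse product, Lyz1 on Lyz2, was 6.07 to 6.58% of the Lyz2 score. With up to 2 mismatches the shared part of the Lyz1 windows was 72.0%. The Lyz2 score times that share was 0.00810 to 0.0350, above the Lyz1 score in every sample.

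**Figure D2:**
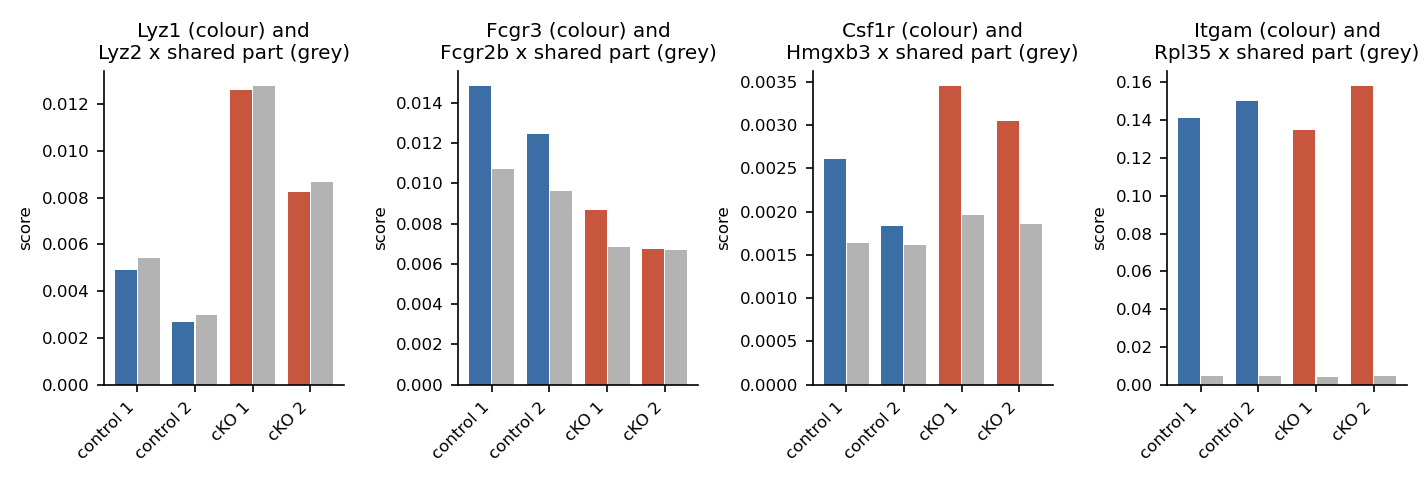
Score of Lyz1, Fcgr3, Csf1r and Itgam in each sample (coloured bars, blue for control and red for cKO) beside the score of the gene with which it shares read-length windows, multiplied by the share of windows (grey bars). The grey bars are as high as the coloured ones for Lyz1, near to them for Fcgr3, lower for Csf1r and close to 0 for Itgam.

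Cd68, a lysosomal protein of macrophages that other cells also make, had 0.00722 and 0.00374 in the control and 0.00954 and 0.00816 in the cKO samples, a log2 fold change of 0.75 (SE 0.31, limma adjusted p = 0.225). Both cKO samples were above both control samples, but the first control sample lay nearer to them than to the other control sample, and without it Cd68 would be called (limma adjusted p = 0.0205). Emr1, a surface marker of macrophages, had 0.00222 and 0.00269 in the control and 0.00301 and 0.00357 in the cKO samples. Csf1r, the M-CSF receptor of monocytes and macrophages, had 0.00261 and 0.00183 in the control and 0.00345 and 0.00305 in the cKO samples. Both were below the filter, and neither passed the broader fit (limma adjusted p = 0.288 for Emr1 and 0.248 for Csf1r). Exons of Csf1r and its neighbour Hmgxb3 overlap in the annotation, and the overlap, 16.0% of the Csf1r windows, times the Hmgxb3 score was 56.7 to 88.4% of the Csf1r score.

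Genes of granulocytes were low and, apart from Csf3r, at or near 0. Csf3r, the G-CSF receptor of neutrophils, had 0.00102 and 0.00114 in the control and 0.00117 and 0.00088 in the cKO samples, with overlapping groups. The neutrophil granule proteases Elane and Ctsg and the calcium-binding protein S100a9, among the most abundant transcripts of neutrophils and their precursors, were at 0 in all 4 samples, which by a count of 3 reads allows scores of up to 0.00019, 0.00017 and 0.00033. S100a8, the partner of S100a9, had 0.00101 and 0 in the control and 0.00064 and 0.00015 in the cKO samples, no more than about 7 reads. Mpo, myeloperoxidase, was at 0 except for 0.00009 in the first cKO sample. The C1q chains C1qa, C1qb and C1qc, which tissue macrophages make, were also seen in the first cKO sample only, at 0.00005, 0.00007 and 0.00014, or 1, 2 and 5 reads. Ccr2, the chemokine receptor of inflammatory monocytes, had 0.00030 and 0.00029 in the control and 0.00013 and 0.00111 in the cKO samples, so that the cKO samples lay on either side of the control samples. Of the 14 myeloid members held to be defining, 3 were at 0 in all samples and 2 (Itgam and Lyz2) met the filter.

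The T cell list was carried by Lck, the kinase that starts signalling from the T cell receptor. Lck had 0.0318 and 0.0437 in the control and 0.0690 and 0.0636 in the cKO samples, and it was 85.3 to 89.2% of the summed T cell score. The groups did not overlap, and the log2 fold change of 0.83 (SE 0.16, n = 2 and 2) did not pass the test (limma adjusted p = 0.0734). It would be called with a filter of 0.05 (limma adjusted p = 0.0426) or without either control sample (0.0397 and 0.00504). Lck lies on chromosome 4, minus strand, at 129225588 to 129250885 of NCBIM37. It shares no read-length window with a protein-coding transcript of another gene.

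The genes that define a T cell were lower than Lck by far. The CD3 chains of the receptor complex reached 0.00038 for Cd3d, 0.00020 for Cd3e and 0.00060 for Cd3g. Their sum was 0.00032 and 0.00063 in the control and 0.00101 and 0.00097 in the cKO samples, and in all 3 chains the cKO samples were above the control samples, on 0 to 13 reads per sample. Cd4, whose product was a target of the depletion, was at 0 in 3 samples and at 0.00006 in the second control sample. Cd8a had 0.00015 to 0.00028 with overlapping groups. Cd8b1 had 0.00216 and 0.00149 in the control and 0.00225 and 0.00208 in the cKO samples, also overlapping, and 7.02% of its windows recur in a total of 234 other genes. The 6 defining T cell members summed to 0.00264 and 0.00246 in the control and 0.00341 and 0.00322 in the cKO samples, of which Cd8b1 is the larger part.

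Zap70 and Lat, which act after Lck in T cell receptor signalling, were below the filter, and neither passed the broader fit. Zap70, the kinase that Lck activates, had 0.00106 and 0.00114 in the control and 0.00206 and 0.00217 in the cKO samples, with a log2 fold change of 0.88 (SE 0.19, limma adjusted p = 0.109 in the broader fit). Lat, the scaffold that Zap70 phosphorylates, had 0.00118 and 0.00114 in the control and 0.00278 and 0.00153 in the cKO samples (log2 fold change 0.78, limma adjusted p = 0.248). The groups did not overlap in either gene, and the cKO samples were close together for Zap70 and apart for Lat.

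A few low genes are given because of their size, chosen after their values were seen. Thy1, a surface protein of mouse T cells, had 0.00003 in both control samples and 0.00069 and 0.00085 in the cKO samples, or about 1 and 1 against 24 and 26 reads. The ratio of these reads per library was 24.2 (95% exact binomial interval 6.35 to 205, counting error only), and the gene was below both filters. In the fit without a filter its adjusted p (limma) was 0.203, the lowest of all members there. That fit called 0 of 37 members, with 11 at an unadjusted p under 0.05, as were 14.8% of its 21582 genes. Il7r, the IL-7 receptor of resting T cells, had 0.00056 and 0.00037 in the control and 0.00130 and 0.00122 in the cKO samples (log2 fold change 1.29, limma adjusted p = 0.113 in the broader fit). The control mean of Il7r was 0.000465, below the mean filter, so it reached that fit through its cKO samples. Gata3, a transcription factor of T helper cells and innate lymphoid cells, had 0.00016 or less in every sample, with overlapping groups.

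In the NK cell list, Il2rb, the IL-2 and IL-15 receptor chain that NK cells share with activated T cells, was the highest member. It had 0.00202 and 0.00137 in the control and 0.00257 and 0.00302 in the cKO samples, a log2 fold change of 0.71 (SE 0.24, limma adjusted p = 0.201 in the broader fit), without overlap. Nkg7, a granule membrane protein of NK and cytotoxic T cells, also named after its values were seen, had 0.00041 and 0.00033 in the control and 0.00175 and 0.00124 in the cKO samples. These are about 6 and 5 against 31 and 19 reads, with a log2 fold change of 1.75 (SE 0.30, limma adjusted p = 0.0714 in the broader fit). The control mean of Nkg7 was 0.00037, so it reached the broader fit through its cKO samples only.

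The defining NK cell genes were close to 0. Prf1, the pore-forming protein perforin, had 0.00057 and 0.00061 in the control and 0.00051 and 0.00022 in the cKO samples, lower in both cKO samples. Granzyme A (Gzma) was at 0 in all 4 samples, which allows a score of up to 0.00018, and granzyme B (Gzmb) was seen in the second cKO sample only, at 0.00005. Klrb1c (NK1.1) was at 0.00007 to 0.00012, Klrd1 (CD94) at 0.00009 to 0.00031, and Ncr1 (NKp46) at 0.00008 or less. The 4 defining members Gzma, Prf1, Klrb1c and Ncr1 summed to 0.00068 in both control samples and to 0.00063 and 0.00037 in the cKO samples.

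**Figure D3:**
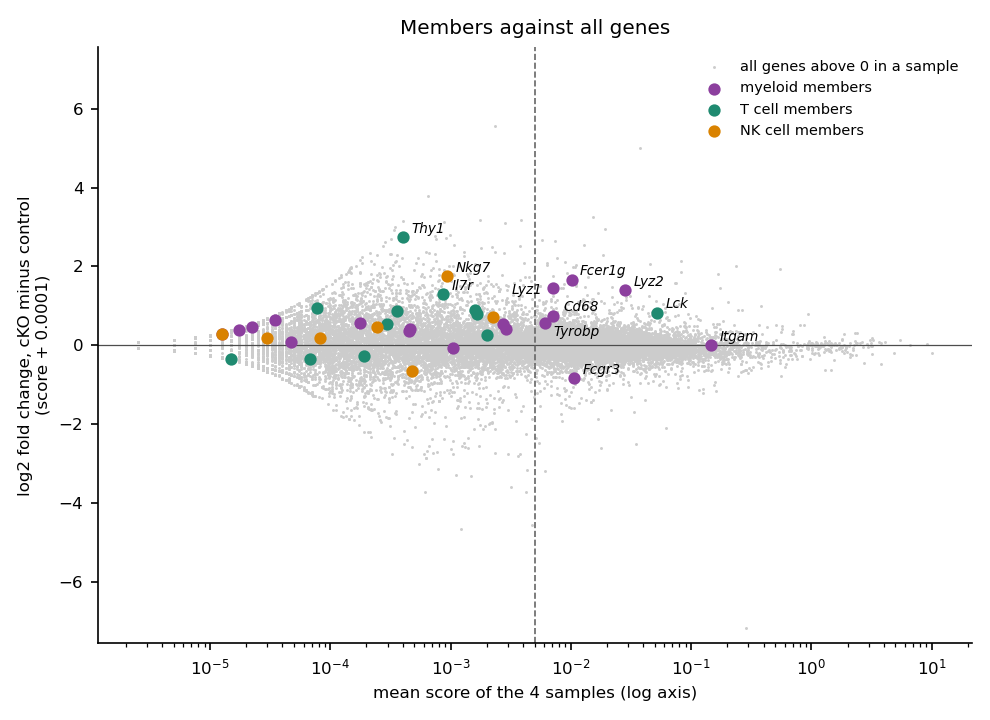
Log2 fold change (cKO minus control, on score + 0.0001) against the mean score of the 4 samples (log axis) for all 21582 genes above 0 (grey) and the members (coloured by lineage). The dashed line is drawn at a mean score of 0.005. At their levels Fcer1g, Lyz1, Lyz2 and Lck lie toward the upper side of the grey points, Fcgr3 toward the lower side and Itgam on the zero line, while most other members lie to the left of the dashed line.

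To size the RNA of each lineage, the scores of its members were summed in each sample. The myeloid sum was 0.205 and 0.197 in the control and 0.250 and 0.242 in the cKO samples, a ratio of means of 1.22. Without Itgam it was 0.0634 and 0.0471 in the control and 0.116 and 0.0836 in the cKO samples, a ratio of 1.80. Without Itgam and the 5 myeloid members that share at least 5% of their windows with another gene (Csf1r, Fcgr3, Itgax, Lyz1 and Lyz2), it was 0.0203 and 0.0189 against 0.0422 and 0.0324, a ratio of 1.90. The cKO samples were above the control samples in all 3 sums. The last sum includes Fcer1g, which is not a strict marker. Its mean was 0.00482 in control and 0.0155 in cKO, beside mean sums of 0.0196 and 0.0373. The defining myeloid members alone, Itgam among them, gave a ratio of 1.17.

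The T cell sum was 0.0373 and 0.0490 in the control and 0.0794 and 0.0725 in the cKO samples, a ratio of 1.76. Without Lck it was 0.00549 and 0.00530 against 0.0103 and 0.00899, a ratio of 1.79. The defining members alone gave a ratio of 1.30. The NK cell sum was 0.00320 and 0.00269 in the control and 0.00523 and 0.00497 in the cKO samples, a ratio of 1.73, whereas the defining members alone gave 0.735. With 2 samples in each group an exact permutation test cannot give a two-sided p below 0.33, so no test of these sums was made.

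**Figure D4:**
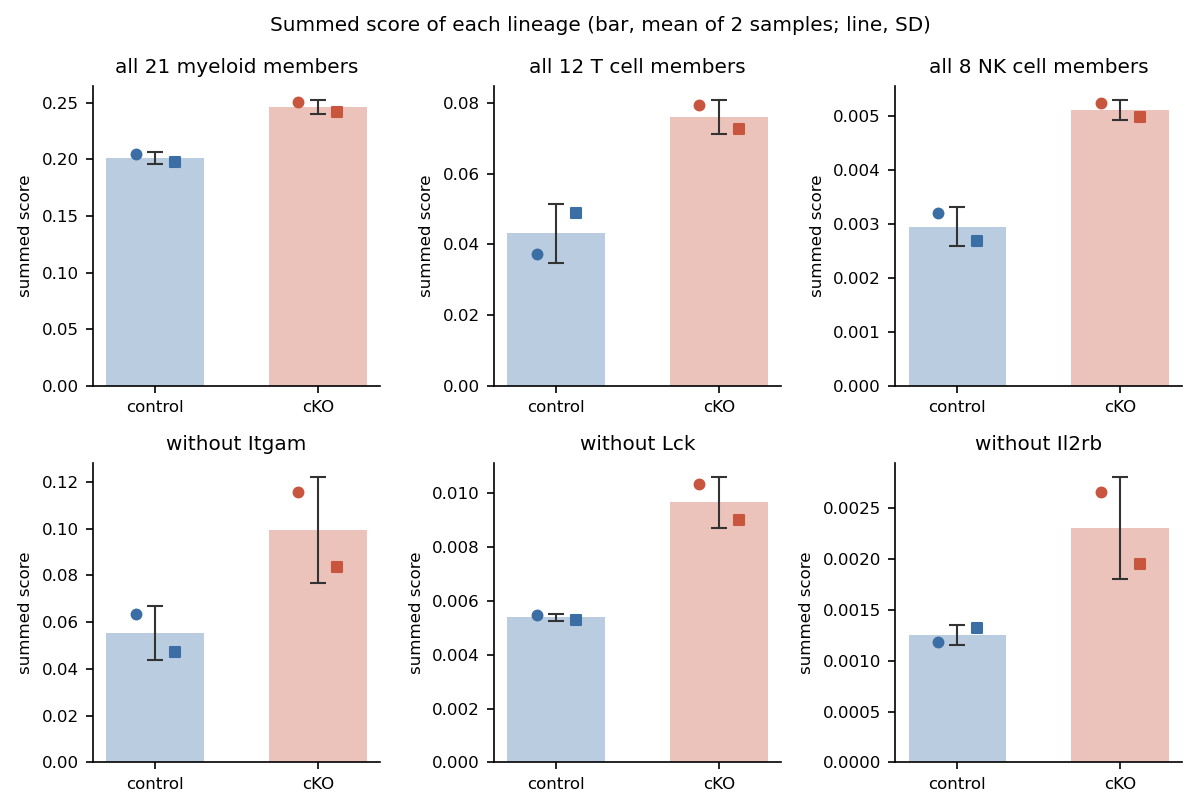
Summed score of the myeloid, T cell and NK cell members in each sample (points), with the mean of the 2 samples of a group (bars from 0) and its SD (lines). The lower row leaves out the highest member of each list. Both cKO samples lie above both control samples in all 6 panels, and the vertical scale falls from 0.25 for the myeloid to 0.005 for the NK cell members.

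Relative to the B cell markers of the same sample, the sums were small. The myeloid members came to 3.66 and 3.26% of the B cell marker sum in the control and to 4.78 and 4.42% in the cKO samples. Without Itgam they came to 1.14 and 0.780% in the control and to 2.21 and 1.53% in the cKO samples. The T cell members came to 0.668 and 0.811% in the control and to 1.52 and 1.33% in the cKO samples, and without Lck to 0.0983 and 0.0877% against 0.197 and 0.165%. The NK cell members came to 0.0573 and 0.0445% in the control and to 0.0999 and 0.0910% in the cKO samples. These are ratios of summed levels per length and not shares of cells, since a cell of each type makes a different amount of each RNA. The B cell marker sum itself was 0.920 times as high in cKO as in control. Cd74 made up a large part of it, with 2.67 and 2.83 in the control and 2.57 and 2.77 in the cKO samples. Among the 12 genes Cd79a, at whose locus the Cre is inserted, and Fcer2a (CD23) were called lower, beside 1.25% of the 9727 genes tested. The call of Fcer2a was lost in the broader fit (limma adjusted p = 0.0535). The mean of Cd79a was 0.705 in control and 0.411 in cKO, beside mean sums of 5.82 and 5.35.

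Genes of the same lineages outside the 41 were taken from separate lists. Among 30 other monocyte, macrophage and neutrophil genes 28 were above 0, and 2 met the filter, of which Clec4e (Mincle), a receptor for microbial glycolipids that signals through Fcer1g, rose. It had 0.00803 and 0.00499 in the control and 0.0224 and 0.0204 in the cKO samples, a log2 fold change of 1.74 (SE 0.22, limma adjusted p = 0.0331). Clec4d, its relative, had 0.00287 and 0.00128 against 0.00850 and 0.00515 and did not pass (limma adjusted p = 0.117). Clec4d met the filter through its cKO samples only. Cd14, the LPS coreceptor, had 0.00281 and 0.00173 against 0.00484 and 0.00433 (limma adjusted p = 0.129 in the broader fit). The median log2 fold change of the 28 was 0.08, with 16 above and 12 below 0.

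Of 22 other T cell genes, 4 met the filter and 0 passed the test with limma. At an unadjusted p under 0.05 stood 1 of these 4, and 22.3% of the 9727 genes tested. The 3 highest, Cd2, Cd247 (the ζ chain of the T cell receptor) and Sit1, had log2 fold changes of 0.11, 0.19 and 0.78. Cd5, a receptor that T cells share with B-1 B cells, was called in the broader fit only, with 0.00094 and 0.00139 in the control and 0.00380 and 0.00453 in the cKO samples (log2 fold change 1.77, limma adjusted p = 0.0461). Of 19 other NK cell genes, 1 met the filter, the chemokine gene Ccl5, and it rose from 0.00517 and 0.00360 in the control to 0.0174 and 0.0171 in the cKO samples (log2 fold change 1.98, SE 0.18, limma adjusted p = 0.0215). Tbx21 (T-bet) and Cd244, the next highest of that list, did not pass the broader fit, with log2 fold changes of 0.03 and 0.49. Among 18 partner genes of the members, which include adaptors, receptor chains and transcription factors, 15 met the filter. Sirpa and Id2 were called higher and Fcgr2b lower, where 0.812% of the 9727 genes were called higher and 1.25% lower. The call of Fcgr2b was lost in the broader fit (limma adjusted p = 0.0503). Id2, a regulator that NK and other innate cells depend on, had 0.00358 and 0.00356 in the control and 0.00989 and 0.0109 in the cKO samples (log2 fold change 1.51, limma adjusted p = 0.0215), and it met the filter through its cKO samples only. In the broader fit, which filters on the mean, its limma adjusted p was 0.0262.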

How the data were processed

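RNA-seq was made from poly(A) RNA of LPS-stimulated splenic B cells. Per the methods and the submitters' processing notes, reads of 38 bases were mapped to mm9 with TopHat2, reads with a Phred quality of at least 25 were kept, and rRNA and tRNA were filtered out with bedtools. The authors deposited a score for each gene and sample. How reads became the score, its unit and the treatment of reads with several matches are not given in the sources used here.

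Samples were grouped by their labels. The 41 members and all other lists were chosen with earlier results of these data known. The test was limma 3.58.1 (R 4.3.3), with an intensity trend in eBayes, on log2(score + 0.0001). It took genes reaching 0.005 in any sample and, in a broader fit, genes with a mean score of at least 0.0005. An adjusted p under 0.05 was called. Other constants, filters, scalings, the replicate block and leaving out each sample were tried as alternatives. The fit was tested on simulated data. Members with a mean score of at least 0.001 and members called were to be given with every sample's value, and other members by range, with some given by sample as well. Of other lists at most the 3 highest genes and those called were to be named. Step, exon lengths, windows of 38 bases and coordinates came from NCBIM37 and its GENCODE annotation, with Python 3.11.15. Windows were compared among protein-coding transcripts only. Intervals and limits on 0 cover counting error only.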

Additional observations from a re-analysis of the deposited data

How the results depend on the processing

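With 2 samples a group the calls depended on single samples and on the filter. Leaving out 1 sample at a time gave 0 to 439 genes called higher and 0 to 391 lower in the whole table (79 and 122 with all 4), and 0 to 5 members higher and 0 to 1 lower (1 and 0 with all 4), with 0 without either cKO sample, 5 without the first control sample (Cd68, Fcer1g, Lck, Lyz1 and Lyz2) and 3 higher (Fcer1g, Lck and Lyz2) and 1 lower (Fcgr3) without the second. In such a fit the lone sample is assumed to vary like the other group. Without a filter limma called 0 genes in either direction (14.8% of 21582 had an unadjusted p under 0.05, 11 of the 37 members among them) and 0 members. Without the trend it called 11 genes higher and 22 lower and 0 members, with a mean score of at least 0.0005 also 0 members, and with a score above 0.05 in a sample 35 genes higher. The cause was not tested.

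Same-numbered samples are known to share only a number. Their deviations from the group means correlated at -0.145. With 2 samples a group the crossed pairing gives the same value with the opposite sign. This correlation therefore cannot show whether the samples were paired. With the replicate block 177 genes were called higher and 180 lower, with 4 members higher (Fcer1g, Lck, Lyz1 and Lyz2) and 1 lower (Fcgr3). With the crossed pairing, added after the data were seen, 212 were called higher and 230 lower, with 2 members higher.

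The median log2 fold change of the myeloid, T cell and NK cell members was 0.094, 0.23 and 0.035 with a constant of 0.001. With 0.00001 it was 1.01 for the myeloid and 0.72 for the NK cell members, and 1.23 for the 2 NK cell members with a mean score of at least 0.0005. Without 1 sample at a time it ran from 0.20 to 0.70 (myeloid), 0.61 to 0.97 (T cell) and 0.29 to 0.58 (NK cell). The ratio of summed scores was 1.26 for the myeloid members with quantile normalization, 1.80 without Itgam, 1.17 for the defining members and 1.90 without members that share windows, the last added after the data were seen. It was 1.30 and 0.735 for the defining T cell and NK cell members. Without 1 sample it ran from 1.20 to 1.25, 1.55 to 2.04 and 1.59 to 1.90. The log2 fold change of Itgam, close to 0, ran from -0.11 without the second to 0.12 without the first cKO sample, and was -0.04 without the first control sample. Of 155 alternatives for 15 single members, 134 left direction and call as they were or, where no test was made, moved the value by less than 1 SD. Only Fcer1g was called to begin with, so for the other members an unchanged call means that they stayed uncalled. A call was lost in 5 alternatives, all of them for Fcer1g, and gained in 13 for other members. At these depths a member at 0 could have up to 3 reads.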

Other observations

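Genes that mark further cell types of the spleen were also measured, and whether their RNA came from such cells or from the B cells was not tested. Of 14 dendritic cell genes 5 met the filter and 0 passed the test with limma. Of these 5, 4 had an unadjusted p under 0.05, beside 22.3% of the 9727 genes tested. The chemokine gene Ccl22, the highest of them, had 0.08002 and 0.0993 in the control and 0.172 and 0.340 in the cKO samples (log2 fold change 1.44, SE 0.31, limma adjusted p = 0.0912), and the actin-bundling protein gene Fscn1 had 0.00328 and 0.00912 against 0.0161 and 0.0156 (log2 fold change 1.51, limma adjusted p = 0.138). Bst2, the second by level, had overlapping groups. The sum of the list, of which Ccl22 was the largest part, was 0.150 in both control samples and 0.233 and 0.3998 in the cKO samples. Its median log2 fold change was -0.13, with 6 genes above and 7 below 0. Flt3, chosen after its values were seen, had 0.0131 and 0.0055 in the control and 0.00101 and 0.002 in the cKO samples. Its log2 fold change was -2.49 (limma adjusted p = 0.0767), and it met the filter through its control samples only.

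Of 10 mast cell and basophil genes, 10 erythroid, 8 platelet and 10 stromal and endothelial genes, 5 in all met the filter. With limma 0 passed the test and 1 had an unadjusted p under 0.05, beside 22.3% of the 9727 genes tested. The erythroid sum was 0.0145 in the first control sample and 0.00340 to 0.00377 in the other 3, with Hbb-b1 and Hbb-b2 as its highest genes. The platelet sum was 0.00494 and 0.00545 in the control and 0.00811 and 0.00726 in the cKO samples. Pecam1, the highest of the stromal and endothelial genes, had 0.0299 and 0.0301 in the control and 0.0235 and 0.0241 in the cKO samples (limma adjusted p = 0.107). The mast cell and basophil sum, nearly all of it from Cd200r3, was 0.0171 to 0.0188 with overlapping groups, while Mcpt8, Cpa3 and Fcer1a, chosen after their values were seen, were at 0 in all 4 samples.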
